A study of Mus musculus with 32 samples.

Results

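The vascular endothelial growth factor (VEGF) genes were followed across single cells of the mouse subventricular zone, a zone of postnatal neurogenesis along the wall of the lateral ventricle. The 9 genes were chosen by symbol, not by their values, from the 38740 gene symbols of the deposited table. They were the ligands Vegfa, Vegfb, Vegfc and Pgf, the receptor tyrosine kinases Flt1, Kdr and Flt4, and the neuropilins Nrp1 and Nrp2. All 9 were present in the table, and 8 of them, Pgf being the exception, were at 1 FPKM or more in at least 3 cells.

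The tissue was taken at postnatal day 21 and gave 4 libraries from pools of 10 cells and 28 libraries from 1 cell each. Values are FPKM, fragments scaled by transcript length and by the mapped fragments of the library. The labels name no strain, genotype, animal, sort or treatment, so the 28 cells stand as 1 sample, and cells were given no p-value. A gene is called found in a cell at an FPKM of at least 1.

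VEGF-A is the main signal for vessel growth and acts through Kdr (VEGFR2), the chief signalling receptor of endothelial cells, while Flt1 (VEGFR1) binds VEGF-A tightly and signals weakly, and its soluble form acts as a decoy. VEGF-B and placental growth factor (the product of Pgf) bind Flt1, and VEGF-C binds Flt4 (VEGFR3) and, once fully processed, Kdr. Neuropilins are co-receptors without a kinase, which bind VEGFs and also class 3 semaphorins, the guidance cues of axons and vessels. In adult brain, VEGF-A is known mostly from astrocytes, choroid plexus epithelium and other cells outside the vessel wall, and Flt1 and Kdr from the endothelium.

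Each cell was assigned to the cell type marker list with the highest mean log2(FPKM + 1), from lists that held none of the 9 genes. Endothelial markers led 8 cells, numbered 1, 2, 3, 6, 7, 8, 16 and 17, each with 9 to 12 of 12 markers found. They are called endothelial-led, and the 20 others are set against them. The others were led by markers of neuroblasts (7 cells), microglia (4), ependymal cells (3), oligodendrocytes (3), astrocytes (2) and choroid plexus epithelium (1). The 12 endothelial markers summed to 10001 to 33861 FPKM in endothelial-led cells, against 0.0314 to 499 in the others. Some cells also had markers of another list. Cell 3 had 9 of 12 microglial markers, cells 19 and 21, led by microglial markers, had 9 and 8 of 12 neuroblast markers, and cell 22, led by 10 of 12 neuroblast markers, had 11 of 12 microglial ones. On the log2(FPKM + 1) scale, the microglial mean of cell 3 was 5.94, beside an endothelial mean of 9.29. The neuroblast means of cells 19 and 21 were 1.83 and 3.96, and the microglial mean of cell 22 was 3.04. Depth could be estimated in 16 of 32 libraries, from the FPKM step of 1 fragment, at about 6.21 to 20.9 in units of 1000000 fragments. Pools had 10478 to 12870 genes found, against a median of 4986 (range 2107 to 10169) in cells. Low values recurred between libraries. In cells 1 to 17, 10.4% of all symbols were above 0 in every cell. Within cells 18 to 22 and cells 23 to 28, a gene high in 1 cell was above 0 in 98.7% and 97.6% of the other values of its set. Of these other values, 85.5% and 79.7% were at 1 FPKM or more, against 6.16% in cells 1 to 17. Counts of genes found in cells 18 to 28 can thus include recurring values, and their part was not tested.

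**Figure D1:**
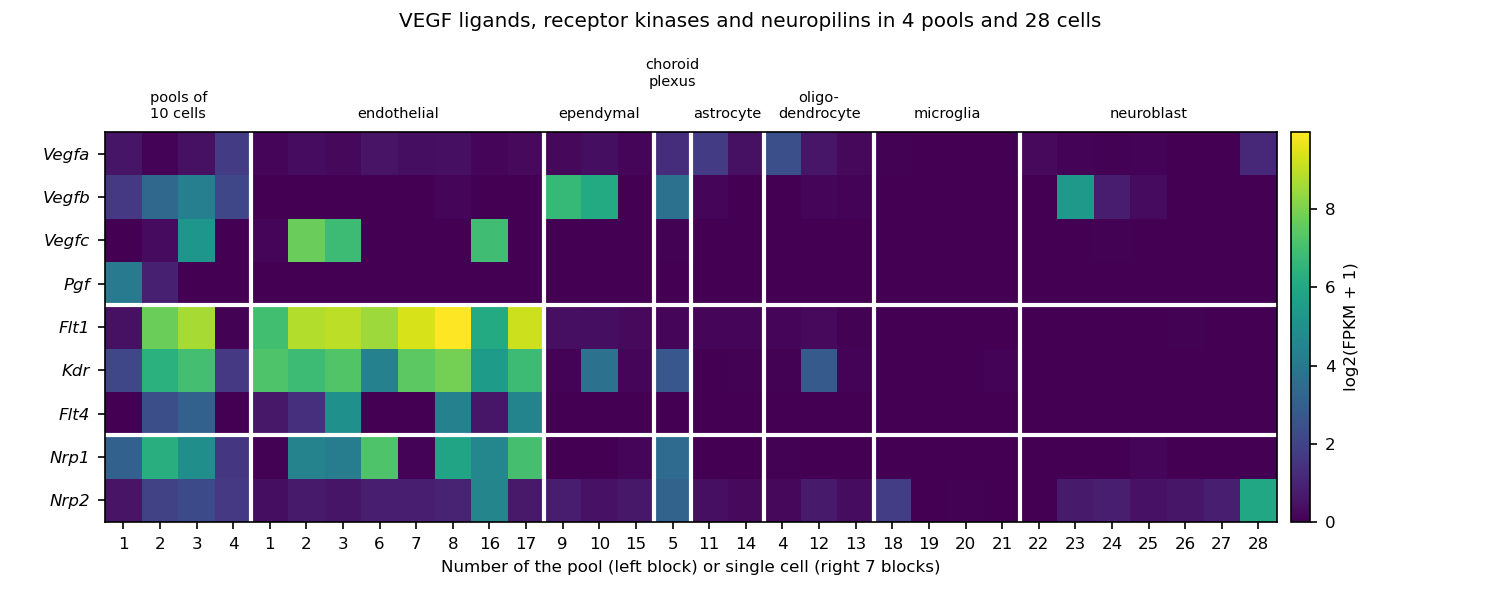
Heat map of log2(FPKM + 1) for the 9 genes (rows: ligands, receptor kinases, neuropilins) in the 4 pools (left block) and the 28 single cells, ordered by leading marker list. Flt1 and Kdr fill the endothelial block of 8 cells and pools 2 and 3, whereas the ligand Vegfb is high in cells 9, 10, 23 and 5, which lie outside it.

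In coordinates of the mouse build GRCm38, Vegfa lies on chromosome 17 from 46016993 to 46032369 (minus strand), Vegfb on chromosome 19 from 6982473 to 6987651 (minus strand), Vegfc on chromosome 8 from 54077606 to 54187096 (plus strand) and Pgf on chromosome 12 from 85166635 to 85177790 (minus strand). Flt1 lies on chromosome 5 from 147561604 to 147726011 (minus strand), Kdr on chromosome 5 from 75932827 to 75978458 (minus strand) and Flt4 on chromosome 11 from 49609263 to 49652739 (plus strand). Nrp1 lies on chromosome 8 from 128358604 to 128503363 (plus strand) and Nrp2 on chromosome 1 from 62703285 to 62818695 (plus strand). Each value covers the whole gene, so splice forms such as soluble Flt1 were not told apart. In the annotation, Nrp1 overlaps the microRNA gene Mir1903 on its own strand and Nrp2 overlaps 2 unnamed genes, so their reads could in part be shared. No other member overlaps an annotated gene.

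The sequences just upstream of the genes with the clearest cell pattern are shown, since Flt1, Kdr, Flt4 and Nrp1 had their highest values among the same 8 cells and Vegfb and Vegfc were the ligands with the highest levels. They are the 250 bases before the first RefSeq start site (GRCm38.p6, 5' to 3' on the strand of the gene). Capitals mark GGAAG, the core bound by ETS factors, GGGCGG, bound by SP factors, TGACGTCA, the cAMP response element, and TATAAA, on either strand. The windows are chr5:147726012-147726261 (minus strand) for Flt1, chr5:75978456-75978705 (minus) for Kdr, chr11:49609429-49609678 (plus) for Flt4, chr8:128358823-128359072 (plus) for Nrp1, chr8:54077282-54077531 (plus) for Vegfc and chr19:6987652-6987901 (minus) for Vegfb. Those of Flt4 and Nrp1 lie inside the GENCODE span of the gene, which starts farther upstream.
Flt1: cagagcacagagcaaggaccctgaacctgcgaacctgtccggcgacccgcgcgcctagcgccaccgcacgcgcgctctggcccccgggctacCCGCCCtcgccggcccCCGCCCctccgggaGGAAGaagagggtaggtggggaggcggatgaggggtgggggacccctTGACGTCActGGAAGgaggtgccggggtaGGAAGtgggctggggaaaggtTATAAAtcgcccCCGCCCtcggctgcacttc
Kdr: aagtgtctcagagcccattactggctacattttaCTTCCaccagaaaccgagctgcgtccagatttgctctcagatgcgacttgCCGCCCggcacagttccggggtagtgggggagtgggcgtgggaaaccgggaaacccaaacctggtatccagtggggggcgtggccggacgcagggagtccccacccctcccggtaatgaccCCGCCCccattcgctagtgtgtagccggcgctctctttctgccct
Flt4: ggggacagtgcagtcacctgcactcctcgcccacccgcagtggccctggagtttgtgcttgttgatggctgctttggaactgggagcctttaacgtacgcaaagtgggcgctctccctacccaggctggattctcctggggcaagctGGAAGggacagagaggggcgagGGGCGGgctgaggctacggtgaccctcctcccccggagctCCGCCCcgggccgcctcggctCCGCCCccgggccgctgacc
Nrp1: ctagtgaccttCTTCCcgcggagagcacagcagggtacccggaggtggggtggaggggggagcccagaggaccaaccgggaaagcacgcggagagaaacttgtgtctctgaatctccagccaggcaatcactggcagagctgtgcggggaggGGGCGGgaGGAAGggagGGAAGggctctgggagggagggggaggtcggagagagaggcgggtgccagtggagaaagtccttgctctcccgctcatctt
Vegfc: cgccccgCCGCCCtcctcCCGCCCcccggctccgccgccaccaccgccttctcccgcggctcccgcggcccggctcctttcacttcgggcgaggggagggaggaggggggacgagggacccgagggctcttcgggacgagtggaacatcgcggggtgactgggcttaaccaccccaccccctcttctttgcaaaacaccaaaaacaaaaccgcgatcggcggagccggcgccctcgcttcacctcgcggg
Vegfb: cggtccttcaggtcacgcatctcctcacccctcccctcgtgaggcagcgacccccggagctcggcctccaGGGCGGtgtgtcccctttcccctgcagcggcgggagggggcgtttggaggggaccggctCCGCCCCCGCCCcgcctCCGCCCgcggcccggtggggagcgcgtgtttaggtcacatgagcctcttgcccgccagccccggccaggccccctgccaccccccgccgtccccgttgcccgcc

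The windows of Flt1 and Nrp1 each held GGAAG 3 times, those of Kdr and Flt4 once each, and those of Vegfc and Vegfb held it on neither strand. Of the 9 genes, 5 had GGAAG in this window (Vegfa was the other), against 64.1% of all 32851 promoters in the table. GGGCGG was in the windows of 9 of 9 genes, against 32.7% of all promoters. The Flt1 window alone held TGACGTCA, present in 1.55% of all promoters, and TATAAA, present in 12.4%. ACGTG, the core of the hypoxia response element, was in 0 of these 9 windows, against 16.6% of all promoters, but was present once in the window of a second RefSeq start site of Vegfa. The absence of a match says only that these letters are not in this window, and a match is not a binding site.

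The ligand genes were found in few cells and mostly in different ones. Vegfa, the most widely acting ligand, was found in 4 of 28 cells (14.3%, exact Clopper-Pearson 95% interval 4.03% to 32.7%), and none of the 4 was endothelial-led. Intervals here cover counting error only. It had 0.122, 0.222 and 0.455 FPKM as the lowest, median and highest of the endothelial-led cells. Outside them it was at 4.36 FPKM in cell 4 (oligodendrocyte markers), 2.46 in cell 11 (astrocyte markers), 1.49 in cell 5 (choroid plexus markers) and 1.20 in cell 28 (neuroblast markers). Vegfa was therefore low wherever it was found. It was above 0 in 17 of 17 of cells 1 to 17 and in 7 of the 11 later cells, in which other genes also recurred at low levels, and whether its low values are transcripts of those cells was not tested.

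Vegfb, a ligand of Flt1 known best from muscle and heart, reached the highest level of a ligand outside the endothelial-led cells. It was listed at 0 in all endothelial-led cells but cell 8, which had 0.0858 FPKM. Of the others, it was found in cell 9 (101 FPKM) and cell 10 (67.4 FPKM), which were led by ependymal markers, in cell 23 (40.0 FPKM), led by neuroblast markers, and in cell 5 (12.7 FPKM), led by choroid plexus markers. The third ependymal-led cell, cell 15, had it at 0, and the cell next below the threshold, cell 24, had 0.682 FPKM. The levels of Vegfb thus divided cells of 1 class as much as they divided classes. Summed over the 28 cells, endothelial-led cells held 0.0385% of its FPKM.

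Vegfc, the ligand known for lymphatic vessel growth, was found in 3 of 28 cells (10.7%, interval 2.27% to 28.2%), all endothelial-led. It was at 206 FPKM in cell 2, 119 in cell 16 and 112 in cell 3. Cell 1 had 0.0852 FPKM, and the other 4 endothelial-led cells were listed at 0. The highest value outside them was 0.0349 FPKM. Vegfc was thus high in a minority of the endothelial-led cells and at or near 0 in every other cell. Pgf was listed at 0 in 28 of 28 cells. A count of 0 of 28 has an exact interval of 0% to 12.3% for counting error, and since an exact 0 in this table can be a failed estimate, it does not bound the share of cells that express Pgf. Figf, which encodes VEGF-D, was listed at 0 in all 28 cells and 4 pools.

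**Figure D2:**
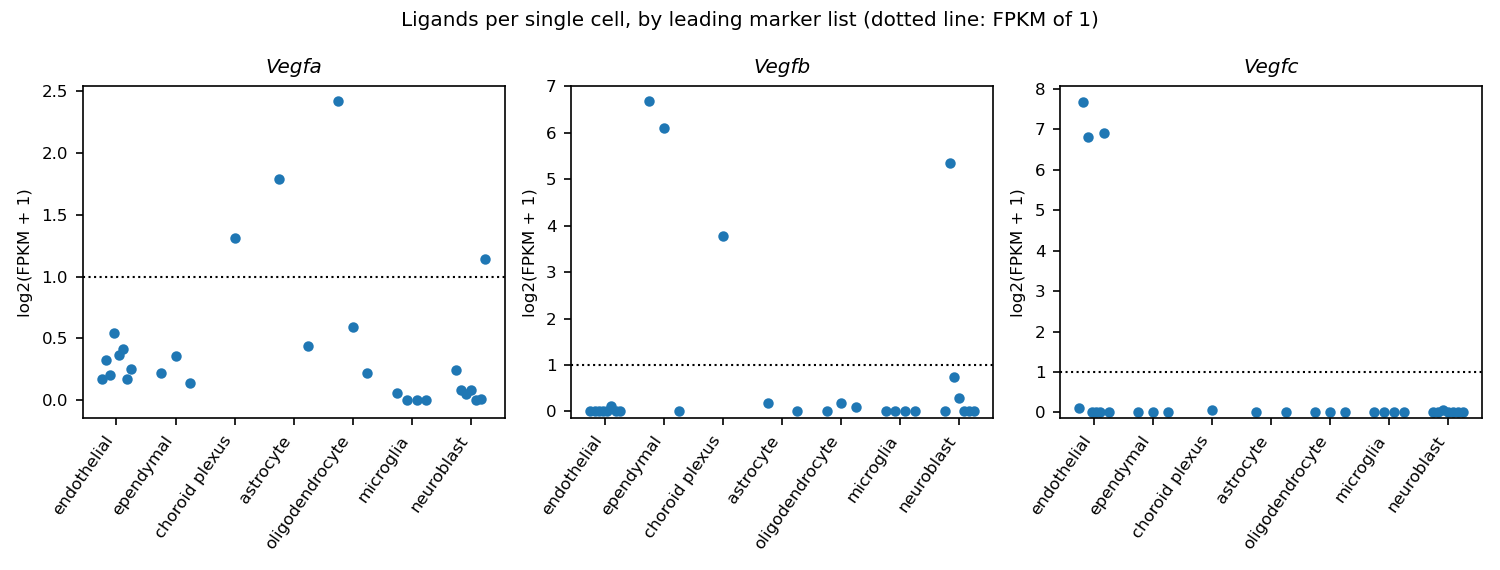
Points are single cells, grouped by leading marker list, with log2(FPKM + 1) of Vegfa, Vegfb and Vegfc on the vertical axes (each on its own scale) and a dotted line at an FPKM of 1. Vegfc is above the line in 3 endothelial-led cells, Vegfb in 4 cells of other classes and Vegfa in 4 cells of 4 classes, none of them endothelial-led.

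The receptor kinases had their high values in the 8 endothelial-led cells, Flt1 and Kdr in all of them and Flt4 in some. Flt1 was at 123 FPKM in cell 1, 452 in cell 2, 501 in cell 3, 368 in cell 6, 656 in cell 7, 1008 in cell 8, 67.0 in cell 16 and 594 in cell 17. Its highest value in the 20 other cells was 0.344 FPKM (cell 9), and their median was 0.0333 FPKM. The groups did not overlap, and 99.96% of the summed FPKM of Flt1 lay in endothelial-led cells. Flt1 averaged 471 ± 301 FPKM in endothelial-led cells and 0.0783 ± 0.102 FPKM in the others (SD, n = 8 and 20 cells).

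Kdr was found in all 8 endothelial-led cells, at 150, 112, 154, 19.9, 176, 237, 45.4 and 112 FPKM in cells 1, 2, 3, 6, 7, 8, 16 and 17. Kdr was also found in 3 other cells: cell 10 (ependymal markers, 12.5 FPKM), cell 12 (oligodendrocyte markers, 6.14 FPKM) and cell 5 (choroid plexus markers, 5.46 FPKM). The remaining 17 cells were at 0.109 FPKM or less. The lowest endothelial-led value, 19.9 FPKM in cell 6, was above the highest other value. Kdr was thus lower, but not near 0, in 3 cells without the endothelial pattern, in which Flt1 was not found. Those 3 cells had 1, 1 and 3 of 12 endothelial markers in cells 10, 12 and 5, and their summed endothelial marker FPKM was 4.97, 38.5 and 86.2. The tight junction gene Cldn5 was at 37.2 FPKM in cell 12, the highest outside the endothelial-led cells, and the part of endothelial RNA in these Kdr values was not tested.

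Flt4, the receptor of VEGF-C, was found in 4 cells, all endothelial-led. It had 31.3 FPKM in cell 3, 21.7 in cell 17, 19.8 in cell 8 and 1.52 in cell 2. In the other 4 endothelial-led cells it was at 0 to 0.555 FPKM, and outside them it did not exceed 0.0129 FPKM. Flt4 therefore split the endothelial-led cells into 3 high cells and 5 at or below 1.52 FPKM.

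Nrp1, the neuropilin of blood vessels and a receptor of semaphorin 3A, was found in 7 cells (25%, interval 10.7% to 44.9%), 6 of them endothelial-led. It was at 149 FPKM in cell 6, 132 in cell 17, 56.0 in cell 8, 23.6 in cell 16, 20.8 in cell 2 and 17.4 in cell 3, but at 0.0749 in cell 7 and 0.0501 in cell 1. Outside the endothelial-led cells, cell 5 had 10.1 FPKM and the rest had at most 0.115. The groups overlapped, with cells 1 and 7 as low as cells of other types.

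Nrp2, known from veins, lymphatic vessels and neurons, did not follow the endothelial-led cells. It was at 22.4 FPKM in cell 16 and between 0.304 and 0.945 FPKM in the other 7 endothelial-led cells. Outside them it was found in cell 28 (neuroblast markers, 60.0 FPKM), cell 5 (7.96) and cell 18 (microglial markers, 2.54), and the rest were at 0.792 FPKM or less. Nrp2 was thus decided by 1 high cell on each side. It averaged 3.36 ± 7.68 FPKM in endothelial-led cells and 3.84 ± 13.3 in the others, a log2 ratio of -0.15 with a pseudocount of 1, which became -1.55 without cell 16, 1.21 without cell 28, -2.58 under upper quartile scaling and 0.18 with all libraries at the same FPKM sum.

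**Figure D3:**
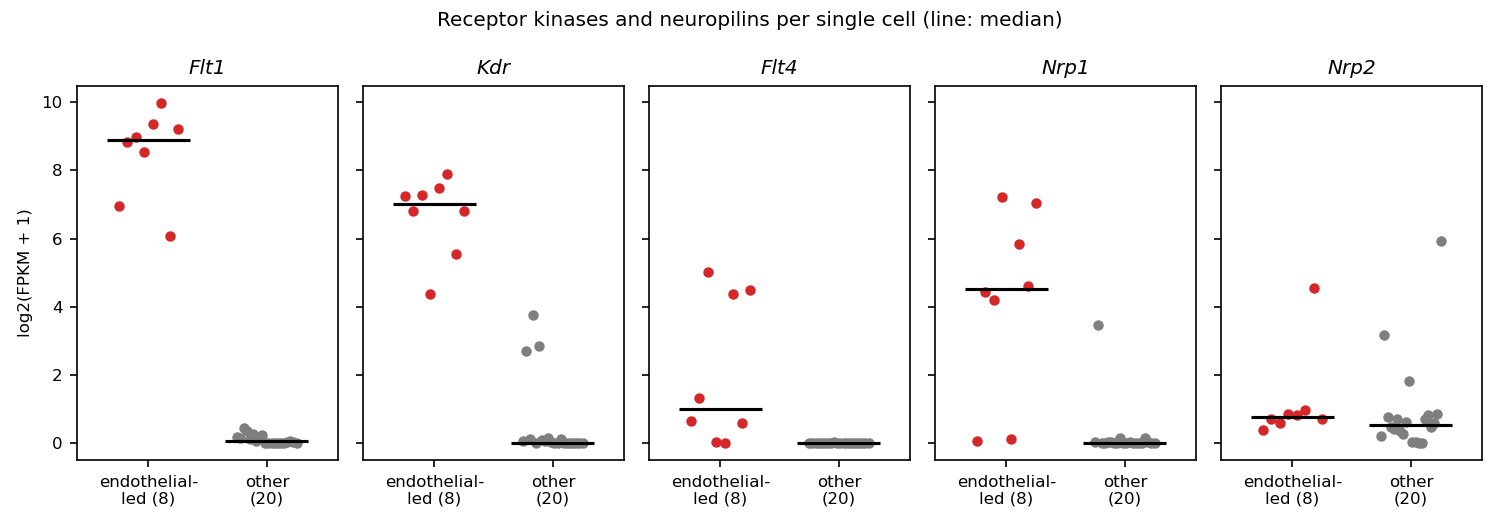
Points are single cells and lines are medians of log2(FPKM + 1) for the receptor kinases and neuropilins in 8 endothelial-led cells (red, left) and 20 other cells (grey, right). The groups are apart for Flt1 and Kdr, and overlap for Flt4, Nrp1 and Nrp2.

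Set against all genes, the endothelial-led cells had 5 of the 9 genes at a log2 ratio of at least 2, computed as log2((mean FPKM of endothelial-led cells + 1)/(mean FPKM of others + 1)), where 5.27% of all symbols reached it. These were Flt1 (8.77), Kdr (5.83), Vegfc (5.79), Nrp1 (5.06) and Flt4 (3.38). Vegfb was the 1 gene at -2 or below, at -3.59, where 11% of all symbols were. With a pseudocount of 10, Flt4 (0.96) and Vegfb (-1.08) did not reach a size of 2, nor did Vegfb with means of log2 values (-1.15). Vegfa (-0.34), Nrp2 and Pgf (0) lay between. The lowest endothelial-led cell was above the highest other cell for 2 of 9 genes, Flt1 and Kdr, where this held for 0.116% of all symbols. Among the 13694 symbols found in at least 3 cells, the 3 shares were 11.5%, 25.7% and 0.329%. These ratios describe 28 cells of unknown animals. The means behind Kdr were 126 ± 70.2 FPKM in endothelial-led cells and 1.22 ± 3.18 in the others, and those behind Vegfb were 0.0107 ± 0.0303 and 11.1 ± 27.2. The spread of Vegfc (54.6 ± 80.3 FPKM), Flt4 (9.42 ± 12.7) and Nrp1 (49.8 ± 58.7) among endothelial-led cells was larger than their means, while those genes averaged 0.00341, 0.00155 and 0.522 FPKM in the others.

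Ligands and receptors were then counted in the same cells. A ligand was found in 10 of 28 cells (35.7%, interval 18.6% to 55.9%) and a receptor kinase in 11 (39.3%, 21.5% to 59.4%). Both were found in 5 cells (17.9%, 6.06% to 36.9%), namely cells 2, 3, 5, 10 and 16. A receptor kinase without a ligand was found in 6 cells (1, 6, 7, 8, 12 and 17), a ligand without a receptor kinase in 5 (4, 9, 11, 23 and 28), and neither in 12. Ligand sources and receptor cells were thus partly different cells and partly the same. The 4 microglia-led cells and 5 of the 7 neuroblast-led cells had neither.

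The pairs that bind each other differed in how often they met in 1 cell. Vegfa and Kdr met in 1 cell (cell 5), and Vegfa and Flt1 in 0, as did Vegfb and Flt1. Every one of the 3 Vegfc cells had Kdr, and 2 of them had Flt4, though in cell 2 at only 1.52 FPKM. The third, cell 16, had Vegfc and Nrp2 together, with Flt4 at 0.506 FPKM. Kdr accompanied Nrp1 in 7 of 7 Nrp1 cells, which are 7 of 11 Kdr cells, and Flt1 in 8 of 8 Flt1 cells. A neuropilin was found without a receptor kinase in 2 cells, 18 and 28, both through Nrp2. Cell 5 had the widest set, with Vegfa, Vegfb, Kdr, Nrp1 and Nrp2, and it also had the most genes found of all cells, 10169. Whether the number of genes found bears on that set was not tested.

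The 8 endothelial-led cells varied among themselves in a gene-specific way. Of the receptors, Kdr varied least, with a coefficient of variation of 55.7% over the 8 cells, and Flt1 next at 63.9%. Nrp1 (118%), Flt4 (135%), Vegfc (147%) and Nrp2 (228%) were carried by some of the cells. The ratio of Flt1 to Kdr FPKM ran between 0.819 in cell 1 and 18.5 in cell 6, with the other 6 cells between 1.48 and 5.29. Cell 1 alone had more Kdr than Flt1 per kilobase. Per 100 FPKM of Cldn5, the tight junction protein claudin 5, Flt1 was at 6.02 in cell 16 and 6.72 in cell 1, and at 15.3 to 53.0 in the other 6 cells, so cells 1 and 16 were low in Flt1 also relative to a shared endothelial gene.

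Genes of vessel segments, taken from lists made after the values had been seen, are given beside these levels as a description. Cells 1 and 16, the lowest in Flt1, had 7 and 8 of 8 venous genes, 0 of 9 arterial genes and 3 of 4 capillary genes each. They were high in Slc38a5, an amino acid transporter (1259 FPKM in cell 1 and 1261 in cell 16), Icam1, a leukocyte adhesion molecule (2769 and 715), and Aplnr, the apelin receptor (1903 and 161). Cell 6, with Flt1 at 368 FPKM, also had 0 of 9 arterial genes, and 4 of 8 venous genes. Cell 1 had the fewest genes found of the 8 cells, 3062, and whether that bears on its arterial count was not tested. Cells 2 and 3 had 7 and 6 of 9 arterial genes, among them Gkn3 (2288 FPKM in cell 2 and 701 in cell 3) and Sema3g (24.2 and 124). They also had 2 and 4 of 8 venous genes, with the venous gene Vwf at 851 FPKM in cell 3, the highest of the 8 cells, and 4 of 4 capillary genes each. The lists thus did not divide the cells cleanly, and in cell 1 the capillary list had a higher mean log2(FPKM + 1) than the venous one (7.59 against 7.21). The 3 Vegfc cells thus comprised both cells with the most arterial genes and the cell with the most venous genes. The 3 cells high in Flt4, cells 3, 8 and 17, were also the highest in Hey1, a Notch target singled out after its values were seen (28.8, 357 and 95 FPKM), and the other 5 were at 10.1 FPKM or less. No endothelial-led cell had any of 3 lymphatic genes, Prox1, Lyve1 and Pdpn.

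**Figure D4:**
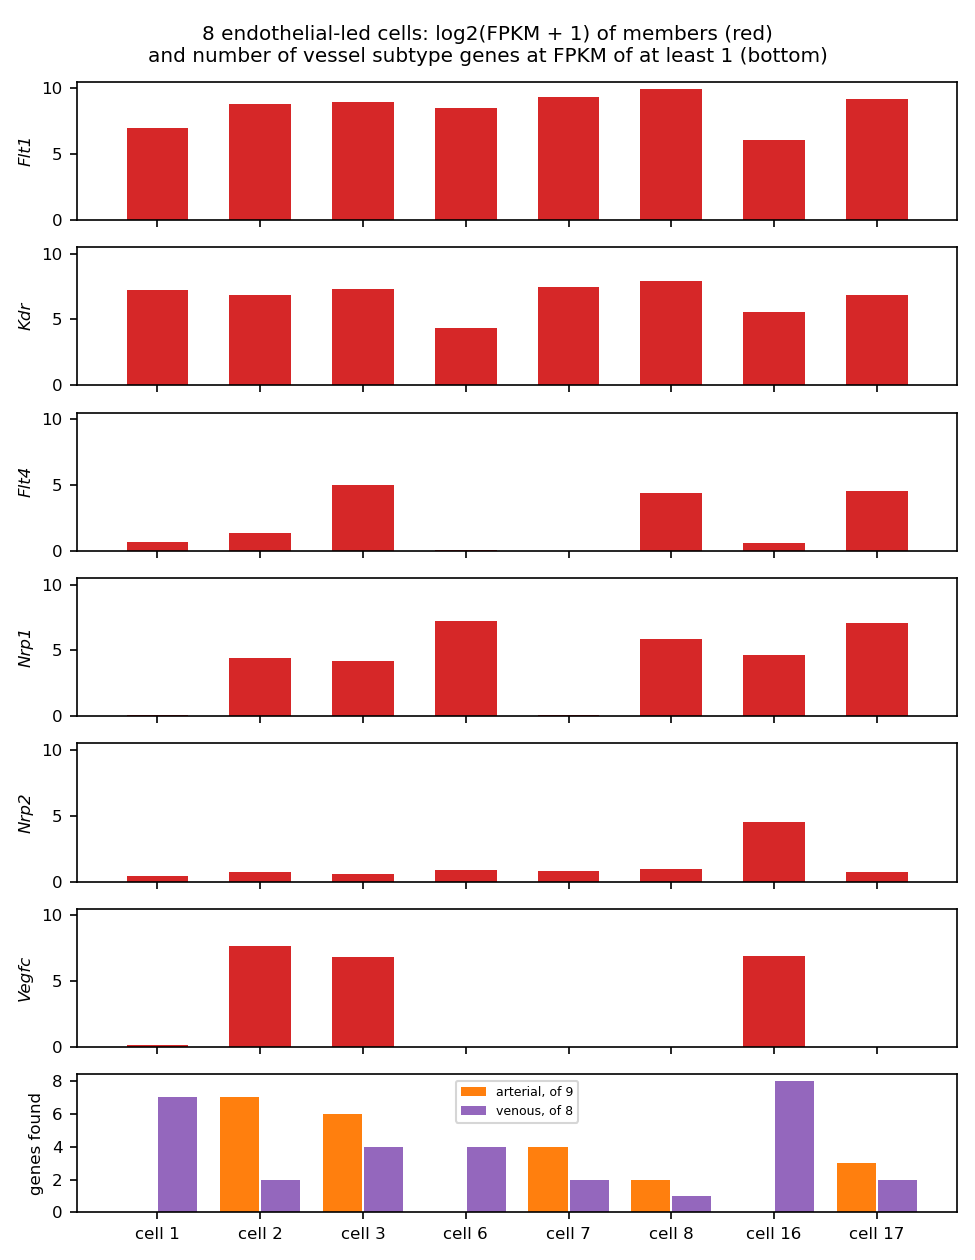
Bars show log2(FPKM + 1) of 6 members in each of the 8 endothelial-led cells, and the bottom panel shows how many of 9 arterial and 8 venous genes each cell had at an FPKM of at least 1. Cells 1 and 16 have the lowest Flt1 and most venous genes, and Vegfc is high in cells 2, 3 and 16.

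The genes whose levels followed the receptors most closely were ranked by Spearman correlation over the 28 cells, among 9449 genes found in at least 6 cells. The points come from 1 tissue and 1 table and differ in depth and class, and the values are descriptions. Flt1 was followed most closely by Cldn5 (rho 0.952), Itm2a (0.945) and Prom1 (0.943), all of which were in the marker lists that classed the cells. Kdr was followed by Lsr, a tricellular junction receptor (0.935), Tdrp (0.924) and Egfl7, a secreted endothelial protein (0.921), and of these Egfl7 was in the endothelial list. Lsr had 55.3 to 820 FPKM in endothelial-led cells and at most 20.9 in the others. Nrp1 was followed less closely, by Slc40a1, the iron exporter ferroportin (0.835), Slco1a5 (0.786) and Gm6614 (0.785), and the last 2 share sequence with other Slco1a copies, so their reads are uncertain. Among the members themselves, rho was 0.875 for Flt1 with Kdr, 0.711 for Flt1 with Nrp1 and 0.590 for Kdr with Nrp1.

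Around the receptors, 86 genes of the VEGF pathway and of vessel biology were read in the same way, of which 83 had not been used to class the cells. Of these 83, 29 were at a log2 ratio of 2 or more in endothelial-led cells, 18 at -2 or less and 36 between, and 7 were found in no cell. The shares among the genes found in at least 3 cells were 11.5% higher and 25.7% lower, so the low count stood near the background. Of the 29 high genes, 11 came from a list chosen as transcription factors of endothelium. The median log2 ratio of the 83 was 0.09, beside 0 over all symbols and -0.26 over the 13694 genes found in at least 3 cells. Averaging log2 values in place of FPKM gave 25 at 2 or more and 2 at -2 or less. In what follows, high and low mean a log2 ratio of at least 2 and at most -2, and each ratio is given in brackets.

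Transcription factors of endothelium were the list with the most high genes, where 11.5% of genes found in at least 3 cells were high. The list was chosen as genes of endothelium and read in cells picked by endothelial markers, so a high count was built in. Of 12, 11 were at 2 or more (Erg, Fli1, Ets1, Ets2, Sox7, Sox17, Sox18, Tal1, Lmo2, Gata2 and Foxc1), with a list median of 4.65, and the exception was Foxo1 (-0.18). Lmo2, a bridging factor, averaged 350 FPKM in endothelial-led cells and 0.857 in the others (log2 ratio 7.56). Erg, an ETS factor that keeps endothelial identity, was found in 7 of 8 endothelial-led cells and 0 of 20 others (5.14). Sox7 (6.63) was found in 5 of the 8, and Tal1 (2.03) in 1.

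Partners and signal carriers of the receptors differed in both directions. Of 7 receptor partners, 2 were high and 3 low, where 11.5% and 25.7% of genes found in at least 3 cells were. Among 7 receptor partners, Cav1, the coat protein of caveolae (7.77), and Ptprb, the phosphatase VE-PTP (6.85), were high and found in 8 of 8 endothelial-led cells, with no overlap with the others. Gipc1, which binds the neuropilin tail (-7.11), Itgav (-3.76) and Itgb3 (-3.27), integrin subunits, were low, and the integrin subunit gene Itgb1 (0.95) lay between. Gipc1 was found in 0 of 8 endothelial-led cells and 18 of 20 others. It averaged 154 FPKM in the others, with a median of 5.90 and 1738 in the highest cell. Some of the others belong to the sets with recurring values, whose part in this count was not tested. Of 24 signalling genes, 2 were high and 8 low, near the shares of 11.5% and 25.7% among genes found in at least 3 cells. The high ones were Nos3, the endothelial nitric oxide synthase (6.42), and Hspb1, a small heat shock protein (7.02). Nos3 had 13.2 to 249 FPKM in endothelial-led cells and at most 0.0406 in the others. Among the low ones were Src (-4.77), Fyn (-2.85), Nck1 (-2.18), Vav2 (-6.18), Prkca (-4.75), Mapkapk2 (-5.33) and Rcan1 (-3.22). Means in the others could rest on few cells: Mapkapk2 averaged 106 FPKM there, with a median of 1.99 and 1815 in its highest cell. The abundant small GTPases Cdc42 (1.02) and Rac1 (0.73) lay between.

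The class 3 semaphorins, which share the neuropilins, were found in few cells. Sema3c (6.46) and Sema3g (4.28) were high in endothelial-led cells, in 6 and 2 of the 8, and were found in 0 of the 20 others. Of the other 5 class 3 semaphorins, 3 were found in no cell, among them Sema3a, the main ligand of Nrp1. Sema3b and Sema3e were found in 1 other cell each. Plxnd1, a vascular semaphorin receptor (3.07), was found in 6 endothelial-led cells and 0 others, while Plxna3 (-2.98) and Plxna4 (-3.54) were found in 0 endothelial-led cells and in 4 and 3 others. Plxna2 lay between (1.33). Of genes found in at least 3 cells, 11.5% were high and 25.7% low.

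Of 8 genes of oxygen sensing, which controls Vegfa in many tissues, 2 were high and 2 low, with a list median of -0.21, where 11.5% and 25.7% of genes found in at least 3 cells were. Epas1, which encodes HIF-2alpha, averaged 518 FPKM in endothelial-led cells and 4.59 in the others (6.54), without overlap. Hif1a, which encodes HIF-1alpha, averaged 0.305 and 29.4 FPKM in the same groups (-4.54), and was found in 2 of 8 endothelial-led cells and 13 of 20 others. Its mean in the others was carried largely by 1 cell at 494 FPKM, and their median was 2.03 FPKM. Vhl, which marks both proteins for destruction, was at -3.61, Arnt at 4.70 with 1 cell at 324 FPKM, and the hydroxylase gene Egln2 between. Of 8 target genes, Slc2a1 (4.42), Ankrd37 (4.76), Ndrg1 (2.56) and Adm (3.57, found in 1 of the 8) were high, Bnip3 (-3.36) and Pdk1 (-2.47) were low, and Ldha and Pgk1 lay between. Slc2a1, the glucose transporter of the blood-brain barrier, is also a general brain endothelial gene.

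Of 12 counted sprouting and maturation genes, 5 were high and 1 low, where 11.5% and 25.7% of genes found in at least 3 cells were. The list was chosen as vessel genes and read in cells picked by endothelial markers, so high genes were in part built in. The high ones were Aplnr (8.01), Pdgfb, which recruits pericytes (7.06), Hey1 (5.97), Dll4, the Notch ligand of tip and arterial cells (3.08), and Notch4 (3.02). Aplnr was found in 2 of the 8 cells and Pdgfb in 7. Apln, the apelin gene and a tip cell marker, was low (-3.82) and found in 0 endothelial-led and 3 other cells. The tip cell genes Esm1 and Kcne3 were found in no cell.

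The 4 pools of 10 cells gave a second view of the same genes, though in a pool fewer cells of a type and less RNA per cell cannot be told apart. Flt1 was at 0.361, 211, 405 and 0.0332 FPKM in pools 1 to 4, and Kdr at 3.40, 82.5, 128 and 2.15. Flt4 was at 0, 4.32, 7.59 and 0 FPKM. All 3 kinases were thus high in pools 2 and 3, the pools led by endothelial markers, and low or at 0 in pools 1 and 4, led by oligodendrocyte markers. Per 100 FPKM of Cldn5, pools 2 and 3 had 16.2 and 17.8 of Flt1, within the 6.02 to 53.0 of the endothelial-led cells, and 6.32 and 5.65 of Kdr, within 0.825 to 14.3.

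Nrp1 was at 7.46, 75.5, 30.2 and 1.97 FPKM in pools 1 to 4 and Nrp2 at 0.446, 2.85, 3.67 and 2.17. Vegfc was at 36.5 FPKM in pool 3, 0.229 in pool 2 and 0 in pools 1 and 4. Vegfc thus separated the pools led by endothelial markers from each other, as it had separated endothelial-led cells. Pool 3 had vessel segment genes of several kinds, among them the arterial gene Gkn3 (161 FPKM) and the venous genes Lcn2 (55.5 FPKM), Icam1 (635 FPKM) and Aplnr (409 FPKM). Among endothelial-led cells, Gkn3 was highest in cell 2 and Lcn2 in cell 16, which had Vegfc, while Icam1 and Aplnr were highest in cell 1, in which Vegfc was not found. Vegfb was found in all 4 pools (2.14, 9.11, 18.9 and 3.34 FPKM). Pools 1 to 4 had 7, 12, 13 and 12 of 14 ependymal markers, the fewest and the most in the same pools as the lowest and highest Vegfb. By mean log2(FPKM + 1) of these markers, pool 4 was the highest (4.65, against 4.36 in pool 3). The source of Vegfb in the pools was not tested. Vegfa was found in pool 4 alone (2.36 FPKM). The mean log2(FPKM + 1) of that pool was 9.36 for oligodendrocyte, 6.77 for astrocyte and 6.46 for choroid plexus markers, and the source of its Vegfa was not tested.

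Pgf, listed at 0 in every cell, was at 16.1 FPKM in pool 1, 0.837 in pool 2 and 0 in pools 3 and 4. Pools 1 to 4 had 7, 8, 2 and 4 of 10 markers of pericytes and smooth muscle. Among these, Acta2, smooth muscle actin, was at 1159, 3.46, 2.50 and 172 FPKM, and Pdgfrb, the pericyte receptor, at 10.4, 13.4, 0.0102 and 9.61. The choroid plexus gene Ttr was at 33894, 19.5, 25.1 and 19813 FPKM. Pool 4, with Pgf at 0, thus shared high Ttr and a like level of Pdgfrb with pool 1, and the part of these cell types in the Pgf value was not tested. No single cell was led by pericyte markers. The log2 ratio of the mean of pools to the mean of cells was 2.39 for Pgf, 0.93 for Nrp1, 0.54 for Kdr, 0.30 for Vegfa, 0.19 for Flt1, 0.11 for Flt4, 0.07 for Vegfb, -0.52 for Nrp2 and -0.71 for Vegfc. A gene was counted where the ratio was at least 1 in size and all 4 pools lay on 1 side of the mean of the cells, which held for 0 of the 9 genes, where 0.800% of all symbols were counted as higher and 6.39% as lower. With means of log2 values the ratios were larger for Nrp1 (2.63), Kdr (2.04) and Flt1 (1.72), where the median of genes found in at least 3 cells was 1.33. The SD of the ratio over pools was 4.61 for Flt1 and 2.79 for Kdr, far above their ratios. Without pool 1 the ratio of Pgf was 0.36, and without pool 3 that of Vegfc was -3.95.

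**Figure D5:**
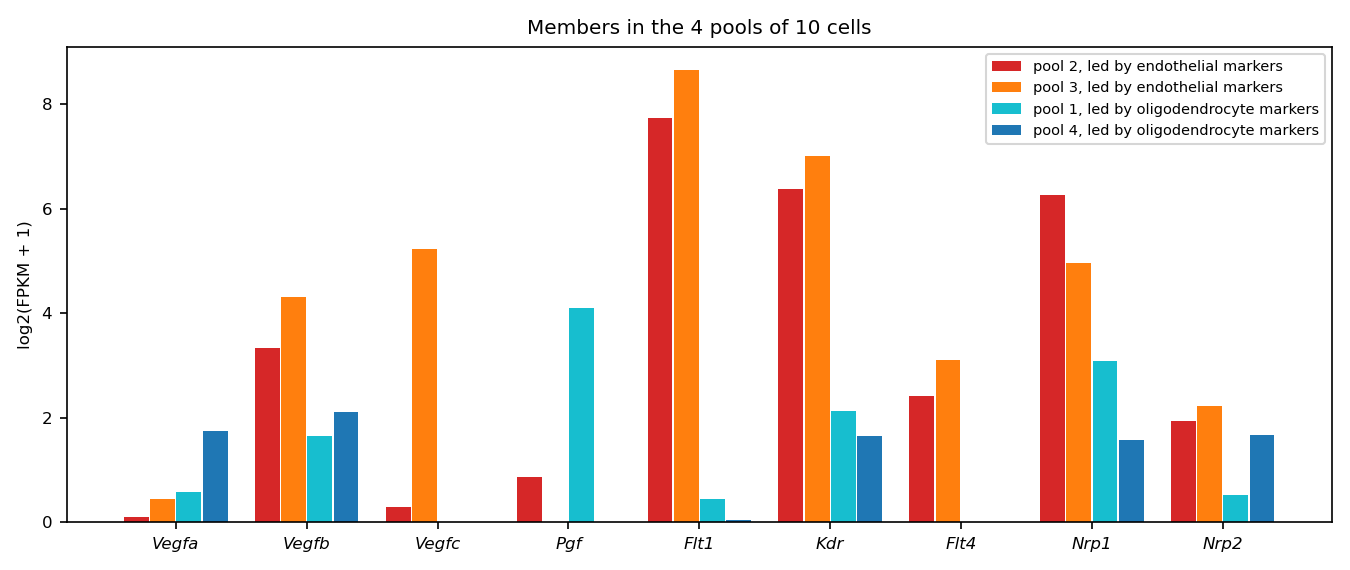
Bars show log2(FPKM + 1) of the 9 genes in each pool of 10 cells, with pools 2 and 3, led by endothelial markers, before pools 1 and 4, led by oligodendrocyte markers. Flt1, Kdr and Flt4 are highest in pools 2 and 3, Vegfc in pool 3 and Pgf in pool 1.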

How the data were processed

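FPKM values came from TopHat 1.41 and Cufflinks 2.02, with mm9 as the named build, per the submitters' processing notes. The authors deposited them as a single table of genes by the 4 pools and 28 cells. Its loci match GRCm38 rather than mm9: GENCODE M21 has the gene ID for 96.0% of 39011 lines, and 99.7% of the matched lines overlap the gene there. The strand setting was not given in the sources. Lines of 1 symbol were summed, and 27 symbols turned into dates were restored by gene ID. An exact 0 can be a failed estimate and is given as listed at 0. Depth was estimated from FPKM steps of 2342 genes with 1 exon, for an assumed fragment length of 200 bp.

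Ratios are log2 of mean FPKM plus a pseudocount of 1, which understates changes of low genes. No p-value was computed, since cells are not replicates and the labels give no second sample. Shares have exact Clopper-Pearson intervals at 95%, also for a count of 0. No doublet caller was run. The members, marker lists and pathway lists were chosen with earlier results of these data known, and the vessel segment lists and motifs after the values here had been seen. The text names all 9 members, the 3 most abundant genes of each pathway list and those past the ratio (1 of which is not reported here), and the 3 genes most like each receptor found in at least 6 cells. The alternatives were other thresholds, pseudocounts, scalings and averages, cells 1 to 17 alone, a limit on values recurring within the library sets, and leaving out each pool and, added after seeing the data, each cell. The computations were tested on simulated data. Python 3.11.15, numpy 2.4.6, pandas 2.3.3, scipy 1.17.1 and matplotlib 3.10.9 were used.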

Additional observations from a re-analysis of the deposited data

Results flagged for a closer look

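Of 17 groups of 4 to 10 libraries examined, 3 held a library far from the rest. The rule marks about 1 in 20 groups of normally distributed values. Many values here were at 0 and were not of that kind, so the count of 3 cannot be set against that rate. Vegfc was at 36.5 FPKM in pool 3, the highest of the 4 pools. Its gap to the next pool was 0.943 of the range on the log2(FPKM + 1) scale. Vegfb was at 0.0858 FPKM in cell 8 and listed at 0 in the 7 other endothelial-led cells, so any value above 0 would have been flagged. Nrp2 was at 22.4 FPKM in cell 16. Its gap to the next of the 8 endothelial-led cells was 0.861 of the range on the log2(FPKM + 1) scale.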

How the results depend on the processing

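No paired analysis was possible because the results come from no test and the numbers that cells and pools share are only names. Apart from leaving out libraries, 32 of 202 values were marked as moved, none with a reversed direction of a called value. Ratios were marked when they shifted by at least the SD of log2(FPKM + 1) over the endothelial-led cells or the pools. Shares were marked outside the exact interval of the main count, and pathway counts beyond 1.5 times. Lists of like genes were marked when fewer than 2 of the 3 genes came out again among the first 10. The other 170 were not marked, though the spread between libraries is wide and some ratios shifted by over 1 on the log2 scale. At a threshold of 0.1 FPKM, Vegfa was found in 64.3% of cells, Flt1 in 53.6%, Nrp2 in 85.7%, any ligand in 75%, any neuropilin in 85.7% and ligand with receptor in 50%, and at 10 FPKM Vegfa in 0%. Vegfa, Flt1 and Nrp2 were each above 0 in all 17 of cells 1 to 17. The shares at 0.1 FPKM can thus include recurring low values, and their part was not tested. In cells 1 to 17 alone, Kdr and any receptor kinase were found in 64.7%. For endothelial-led over other cells, a pseudocount of 0.1 gave log2 ratios of -0.99 for Vegfa, -6.66 for Vegfb, 11.37 for Flt1, 6.55 for Flt4, 9.05 for Vegfc and 6.33 for Nrp1. A pseudocount of 10 gave -0.046 for Vegfa, -1.08 for Vegfb, 5.58 for Flt1, 3.6 for Kdr, 0.96 for Flt4, 2.69 for Vegfc and 2.51 for Nrp1, so Vegfb and Flt4 no longer reached a size of 2, and 5 pathway genes were lower against 18. Upper quartile scaling gave -0.58 for Vegfa and -2.58 for Nrp2, where the median of genes found in at least 3 cells was -1.30. Means of log2 values gave -0.15 for Vegfa, -1.15 for Vegfb, 2.69 for Vegfc and 2 lower pathway genes. Cells 1 to 17 gave -0.76 for Vegfa and -4.39 for Vegfb, and 0.96 for Nrp2. For pools over cells, a pseudocount of 0.1 gave 5.44 for Pgf, upper quartile scaling -2.16 for Nrp2, and means of log2 values 2.016 for Vegfb, 0.60 for Nrp2, 0.61 for Vegfc, 2.63 for Nrp1, 2.04 for Kdr and 1.72 for Flt1, where the median of those genes was 1.33, and cells 1 to 17 gave -0.52 for Flt1 and -0.16 for Kdr. By Pearson correlation, 1 of the 3 genes most like Flt1 and 0 of the 3 most like Nrp1 came out again. The cause of these shifts was not tested.

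Leaving out each cell gave, for endothelial-led over other cells, -0.38 to -0.15 for Vegfa, -3.65 to -2.87 for Vegfb, 5.08 to 5.98 for Vegfc, 8.52 to 8.94 for Flt1, 5.64 to 6.28 for Kdr, 2.86 to 3.55 for Flt4, 4.59 to 5.64 for Nrp1 and -1.55 to 1.21 for Nrp2, with Pgf at 0, and 27 to 30 higher and 16 to 19 lower pathway genes. Leaving out each pool gave, for pools over cells, -0.17 to 0.49 for Vegfa, -0.61 to 0.36 for Vegfb, -3.95 to -0.33 for Vegfc, 0.36 to 2.73 for Pgf, -0.92 to 0.61 for Flt1, -0.32 to 0.93 for Kdr, -0.60 to 0.43 for Flt4, -0.14 to 1.31 for Nrp1 and -0.74 to -0.27 for Nrp2.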
